A study of Rattus norvegicus with 9 samples.

Results

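Transcripts of 9 citric acid cycle genes (Cs, Idh2, Idh3a, Idh3b, Ogdh, Dlst, Suclg1, Fh and Mdh2) were quantified by RNA-seq in the pubococcygeus, a pelvic floor muscle, taken from female Sprague-Dawley rats. They were chosen by symbol, and each symbol stood on 1 of the 30518 rows of the tables. The 9 libraries fell into 3 groups of 3. In the SUI plus PFES group, stress urinary incontinence (SUI) was modelled by removing both ovaries and distending the vagina for 4 h (catheter of 8 Fr, balloon volume 3 mL, hanging load 120 g). From 1 week later these rats received transvaginal pelvic floor electrical stimulation (PFES) at 50 Hz, 20 mA and 200 μs in sessions of 30 min, 5 days a week for 2 weeks. The SUI group had the same surgery and distension and no later treatment, although its library names read sham. The Blank group had no intervention. Ovariectomy and distension were present together in both SUI groups and absent together from Blank, so their effects cannot be told apart here, and the sources used here describe no SUI group that carried the device without current. Each group had 8 rats, whose age the sources used here do not give. How its 3 libraries relate to those rats is not stated, so p-values measure only the spread between these libraries, which may be technical.

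The citric acid cycle runs in the mitochondrial matrix and oxidises the acetyl group of acetyl-CoA to carbon dioxide, passing the electrons to NADH and FADH2 for the respiratory chain. Citrate synthase brings acetyl-CoA into the cycle, a set of dehydrogenases carries out the oxidations, and malate dehydrogenase remakes the oxaloacetate on which the next turn starts. In skeletal muscle the enzymes are most abundant in oxidative fibres, and citrate synthase is widely used as a marker of mitochondrial content. The measurements below are of transcripts, not of enzyme protein or activity. In a bulk muscle sample, fewer cells of a type and less RNA per cell cannot be told apart.

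The libraries held 50833480 (Blank 1) to 147650284 (SUI plus PFES 1) counts, with a median of 110699836. Levels are given as CPM, counts scaled to a common library size after TMM adjustment. Where genes are compared with each other the deposited FPKM are used, which correct for gene length and library size but carry no TMM factor. Some comparisons of groups are given on both scales. A pair of libraries stood apart. In Blank 1, 32.9% of counts came from the mitochondrial genome, against 13.4% to 17.7% in the other 8, its TMM factor was 0.744, and its counts depended on gene length more than those of any other library (slope 0.177 against -0.055 to 0.021). SUI 1 had the highest TMM factor, 1.30. Its median correlation with the other libraries was 0.949, above the 0.920 of Blank 1 and below the 0.954 to 0.968 of the rest. Striated muscle markers were present throughout: each of the 7 was above 0 in every library, with Myf6 lowest at 23.6 FPKM (Blank 1). Their sum, mostly Acta1 and Ckm, was 44080 to 45969 FPKM in SUI plus PFES and 36371 to 49613 in SUI. In Blank it was 23459 to 41489, lowest in Blank 1.

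All 9 transcripts were abundant. All passed the filter on low counts that left 16256 genes, and their mean FPKM ranked between 106th (Mdh2) and 896th (Dlst) of all rows. Mdh2 led with a mean of 342.5 FPKM over the 9 libraries. Cs followed with 153.9, Idh2 with 144.7, Suclg1 with 133, Ogdh with 132, Fh with 116, Idh3a with 109 and Idh3b with 103.5. Dlst was lowest with 38.8 FPKM. Mdh2 was above Cs, and Idh3b above Dlst, in 9 of 9 libraries. Of neighbours in this order, only Idh3b and Dlst had ranges over all libraries that did not overlap. Between Cs and Idh3b the order changed from library to library. Idh2, for instance, was above Suclg1 in 4 of 9 libraries, and Fh above Idh3a in 5 of 9. Among 17 cycle genes described here, which add further dehydrogenase and ligase subunits and the 4 subunits of succinate dehydrogenase, Mdh2 was highest in every library and Suclg2 lowest, with a mean of 21.6 FPKM.

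**Figure D1:**
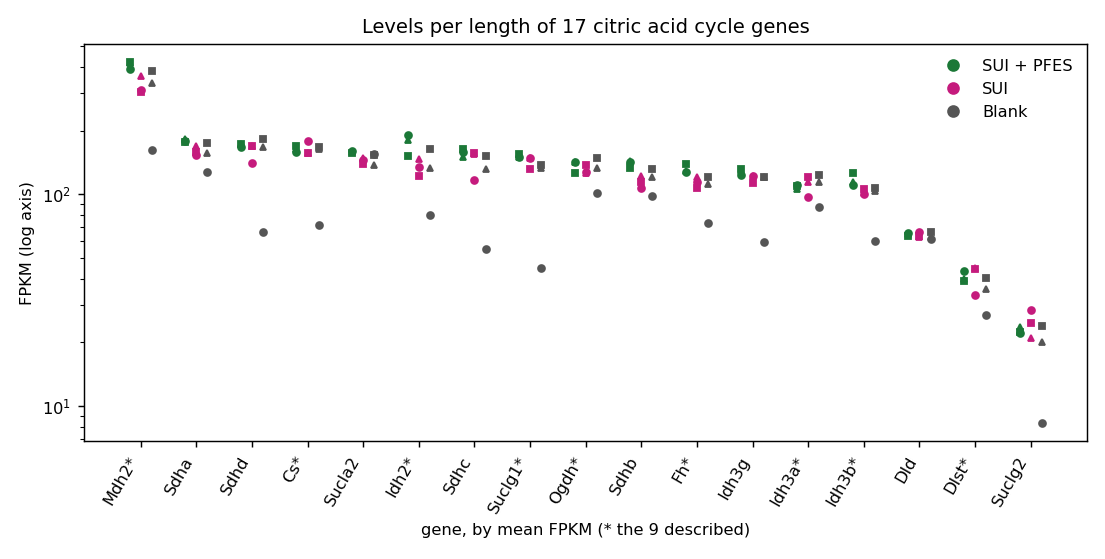
FPKM (log axis) of 17 citric acid cycle genes, 1 point per library, ordered by mean over the 9 libraries; green is SUI plus PFES, magenta SUI and grey Blank, with replicates 1, 2 and 3 as circle, square and triangle. Mdh2 lies above the other genes, Dlst and Suclg2 lie below, and Blank 1 (grey circle) is the lowest library for all 9 genes described, which carry a star.

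After stimulation all 9 transcripts had higher mean CPM than in untreated SUI, by 0.11 to 0.59 on the log2 scale, with a median of 0.22. Mean FPKM was lower than in SUI for Idh3a (109.0 against 110.4) and Dlst (40.8 against 41.0). By limma on log2(FPKM + 1), 8 of the 9 fold changes were above 0, with Idh3a at -0.01. By limma-voom 7 of the 9 were, with Idh3a at -0.02 and Dlst at -0.04. None passed the test. By edgeR's quasi-likelihood test with Benjamini-Hochberg adjustment over 16256 genes, the lowest adjusted p of the 9 was 0.629, and 2 genes of the whole table (0.0123%) were called. At an unadjusted p under 0.05 the test passed 0 of the 9 and 8.0% of all genes. DESeq2 and limma-voom also called 0 of the 9, with lowest adjusted p of 0.407 and 0.190. At an unadjusted p under 0.05, DESeq2 passed 1 of the 9 (Idh2) and 10.4% of all genes, and limma-voom 2 of the 9 (Idh2 and Mdh2) and 18.4% of all genes. Over all genes 52.6% of fold changes were above 0, with a median of 0.02. SUI 1 held the lowest CPM of all libraries for 6 of the 9 genes. Without it, 7 of the 9 fold changes were above 0 and their median was 0.14. The 3 stimulated libraries lay above the 3 SUI libraries in CPM for 3 of the 9 genes, Idh3b, Fh and Mdh2, where 9.52% of all genes did so, and below them for 0 of the 9, where 9.28% of all genes did.

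Between SUI and Blank the direction of the 9 transcripts depended on the scaling and on single libraries. In CPM their log2 fold changes of SUI over Blank ran from -0.16 (Ogdh) to 0.32 (Suclg1, 95% interval -0.32 to 0.96), 5 above 0 and 4 below, where 50.8% of all genes were above 0, with a median of 0.01 for the 9 and for all genes. All 9 were above 0 when counts were scaled by library totals alone, where 65.8% of all genes were and the median of all genes was 0.19. All 9 were also above 0 in FPKM, where 67.6% of all genes were and the median of all genes was 0.09 on the log2(FPKM + 1) scale. In CPM 8 of the 9 were above 0 without SUI 1, and 2 of the 9 without Blank 1 or without SUI 3. Suclg1 was at 0.05 without Blank 1. SUI and Blank libraries overlapped for all 9 genes in CPM, where all SUI libraries were above Blank for 7.34% of all genes and below for 7.77%. They also overlapped for all 9 in FPKM, where the shares were 9.93% above and 3.96% below. The lowest unadjusted p was 0.292, and the lowest adjusted p 0.734, for Suclg1 by edgeR. No gene of the table was called (0.0%) by edgeR, although 1329 (8.18%) had an unadjusted p under 0.05 and DESeq2 called 176, none of them among the 9. Against Blank, the stimulated group had 8 of 9 fold changes above 0, with a median of 0.33, against 0.04 for all genes and 54.3% of all genes above 0. The stimulated libraries lay above the Blank libraries for Idh3b, Suclg1, Fh and Mdh2, 4 of the 9, both in CPM (7.9% of all genes) and in FPKM (4.88%). For 0 of the 9 did they lie below (4.72% of all genes in CPM and 6.04% in FPKM). The edgeR adjusted p was 0.898 or higher for each of the 9, with 1 gene called in the table (0.00615%). The comparisons share groups: the SUI libraries enter both comparisons with SUI, and the Blank libraries both comparisons with Blank.

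**Figure D2:**
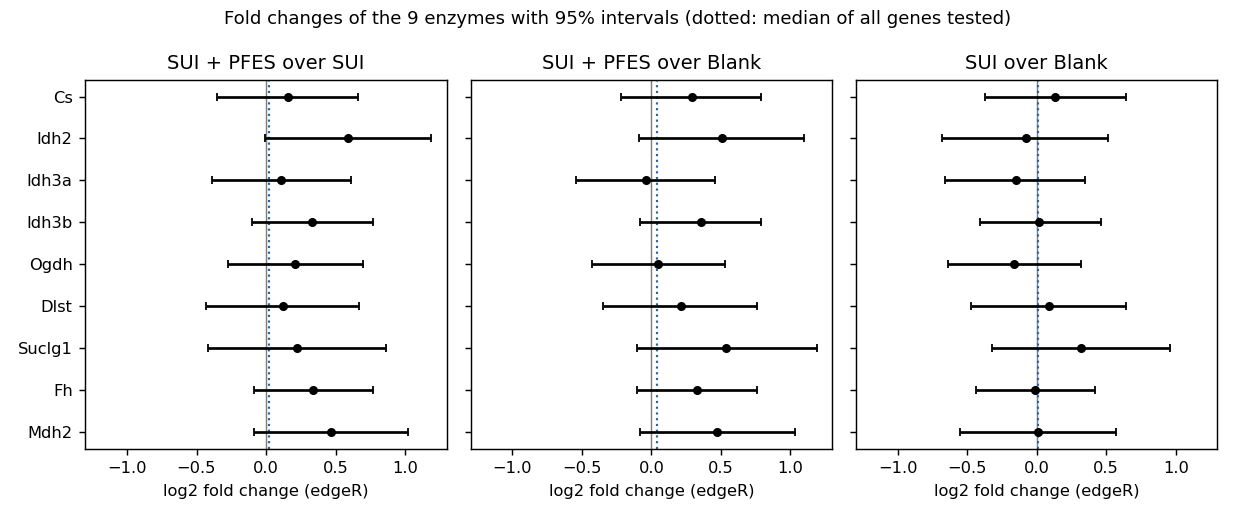
edgeR log2 fold changes (x axes) of the 9 genes with 95% intervals from the quasi-likelihood fit, for SUI plus PFES over SUI, SUI plus PFES over Blank and SUI over Blank; the dotted line is the median of all genes tested. Every interval includes 0. In the left panel all 9 points lie at or above 0.11, and in the right panel they scatter between -0.16 and 0.32.

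Cs encodes citrate synthase, which condenses acetyl-CoA with oxaloacetate. Its level was 606, 527 and 559 CPM in SUI plus PFES, 462, 517 and 538 CPM in SUI and 333, 528 and 523 CPM in Blank (replicates 1, 2 and 3 in that order, as for every gene below). Groups overlapped, and Blank 1 alone lay far below the rest. The means were 564 ± 39.8 in SUI plus PFES, 505 ± 39.2 in SUI and 461 ± 111 CPM in Blank (SD, n = 3 each). The log2 fold change of SUI plus PFES over SUI was 0.16 ± 0.23 (SE, 95% interval -0.35 to 0.66, edgeR adjusted p = 0.924), and that of SUI over Blank was 0.13 ± 0.23. The value for SUI over Blank was -0.04 without Blank 1, and that over SUI was 0.10 without SUI plus PFES 1. In FPKM, Cs was highest in a SUI library, SUI 1.

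Isocitrate is oxidised to 2-oxoglutarate by an NADP-dependent enzyme, encoded by Idh2, and by an NAD-dependent enzyme whose catalytic subunit is Idh3a and whose other subunits are Idh3b and Idh3g. Idh2 had the largest fold change of the 9 after stimulation. It stood at 802, 527 and 675 CPM in SUI plus PFES, at 359, 412 and 562 CPM in SUI and at 371, 574 and 466 CPM in Blank. SUI plus PFES 2 fell inside the SUI range and the other stimulated libraries above it. Means were 668 ± 137, 444 ± 105 and 470.5 ± 102 CPM for SUI plus PFES, SUI and Blank (SD, n = 3 each). SUI plus PFES over SUI gave 0.59 ± 0.27 (95% interval -0.01 to 1.19, unadjusted p = 0.0531, edgeR adjusted p = 0.629), with values of 0.44 to 0.79 as single libraries were left out. SUI over Blank gave -0.08 ± 0.27, with -0.29 without SUI 3 and 0.09 without Blank 2. The Idh2 row overlaps Zfp710 on the opposite strand, whose mean count was 4.28% of that of Idh2. Without knowing whether counting used strand, reads of these genes cannot be told apart.

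Of the subunits of the NAD-dependent enzyme, Idh3a was measured at 371, 301 and 320.4 CPM in SUI plus PFES, 222, 350.1 and 346 CPM in SUI and 351, 346 and 325 CPM in Blank. All groups overlapped, and SUI 1 was the single low library. Idh3a had the smallest fold change of the 9 after stimulation, 0.11 ± 0.22 over SUI (95% interval -0.39 to 0.61, edgeR adjusted p = 0.958), and it was -0.07 without SUI 1 and 0.02 without SUI plus PFES 1. Idh3b gave 286, 267 and 267 CPM in SUI plus PFES, 178, 238 and 235 CPM in SUI and 189, 229 and 223 CPM in Blank. Here the 3 stimulated libraries lay above all 6 others, a pattern whose share among all genes was not counted. Means were 273 ± 11.3 in SUI plus PFES, 217 ± 33.9 in SUI and 214 ± 21.8 CPM in Blank (SD, n = 3 each), with log2 fold changes of 0.33 ± 0.20 over SUI (95% interval -0.10 to 0.77, edgeR adjusted p = 0.724) and 0.36 ± 0.20 over Blank (adjusted p = 0.898).

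The ratio of Idh3a to Idh3b, taken within each library from FPKM so that library scaling cancels, put the difference between these subunits on one scale. It was 1.00, 0.868 and 0.928 in SUI plus PFES, 0.961, 1.14 and 1.12 in SUI and 1.44, 1.16 and 1.10 in Blank. Every stimulated library was below every Blank library, and 1 SUI library lay between the stimulated ones. SUI plus PFES differed from Blank by -0.40 on the log2 scale (two-sided exact permutation p = 0.10, the smallest that 3 against 3 libraries allow) and from SUI by -0.20 (exact p = 0.20). Over the 22 ratio comparisons made, the lowest Benjamini-Hochberg adjusted value was 0.66. Without Blank 1, which had the highest ratio, the difference from Blank was -0.28. Idh3b over Idh3g, the pair of non-catalytic subunits, was 0.900, 0.956 and 0.888 in SUI plus PFES, 0.828, 0.934 and 0.834 in SUI and 1.01, 0.884 and 0.863 in Blank, and all groups overlapped.

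Ogdh encodes the E1 component of the 2-oxoglutarate dehydrogenase complex, the next oxidative step, and Dlst its E2 component, which carries the lipoyl arm. Ogdh was measured at 789, 578 and 720.1 CPM in SUI plus PFES, 487, 673 and 639 CPM in SUI and 685, 694 and 633 CPM in Blank. SUI plus PFES 2 and SUI 1 were the lowest of the 9 libraries, and the groups overlapped. The fold change over SUI was 0.21 ± 0.22 on the log2 scale (95% interval -0.27 to 0.70, edgeR adjusted p = 0.871), and it was 0.09 without SUI 1, 0.11 without SUI plus PFES 1 and 0.33 without SUI plus PFES 2. Dlst had 253, 188 and 210.0 CPM in SUI plus PFES, 134, 227 and 238 CPM in SUI and 189.8, 197 and 177 CPM in Blank. The highest stimulated library exceeded every SUI library, and the others lay below SUI 2 and SUI 3. The log2 fold change over SUI was 0.12 ± 0.25 (adjusted p = 0.959) and became -0.09 without SUI 1 and -0.01 without SUI plus PFES 1. Per length, Ogdh exceeded Dlst in every library, with FPKM ratios of 3.25, 3.21 and 3.58 in SUI plus PFES, 3.803, 3.10 and 2.80 in SUI and 3.77, 3.67 and 3.73 in Blank. The ratio was lower in each stimulated library than in each Blank library, by 0.16 on the log2 scale (difference -0.16, exact permutation p = 0.10, adjusted value 0.66). The related gene Ogdhl, a tissue-restricted form of the E1 component, was listed at 0 in Blank 1, and in the other 8 libraries the ratio of Ogdh to Ogdhl ran between 834.9 and 12540 in FPKM.

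Suclg1 encodes the alpha subunit of succinyl-CoA ligase, which pairs with Sucla2 in the ATP-forming enzyme and with Suclg2 in the GTP-forming enzyme. It was measured at 291, 248 and 264 CPM in SUI plus PFES, 199, 226 and 265 CPM in SUI and 106, 224 and 222 CPM in Blank. Blank 1 lay far below all others, 1.06 under the 9-library mean on the log2 scale (deviation -1.06), the largest deviation of any of the 9 genes in any library. The means were 268 ± 21.7 in SUI plus PFES, 230 ± 32.9 in SUI and 184 ± 67.8 CPM in Blank (SD, n = 3 each). The stimulated libraries were all above the Blank libraries but overlapped SUI, and log2 fold changes were 0.22 ± 0.29 over SUI (95% interval -0.42 to 0.86, edgeR adjusted p = 0.914) and 0.54 ± 0.29 over Blank (adjusted p = 0.898). Without Blank 1 the fold change over Blank was 0.25, and that over SUI was 0.14 without SUI 1. The partner subunits departed from each other in the same library: the FPKM ratio of Sucla2 to Suclg2 was 7.24, 7.00 and 6.69 in SUI plus PFES, 5.13, 5.65 and 7.12 in SUI and 18.8, 6.41 and 6.92 in Blank. Blank 1 stood alone here too, and the part its unusual length dependence and mitochondrial share have in these values was not tested.

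Fh encodes fumarase, which hydrates fumarate to malate, and Mdh2 encodes mitochondrial malate dehydrogenase, which closes the cycle. Fh had 279, 252 and 256 CPM in SUI plus PFES, 172, 206 and 243 CPM in SUI and 196, 221 and 209 CPM in Blank. All stimulated libraries were above all 6 others. The means were 262 ± 14.5 in SUI plus PFES, 207 ± 35.1 in SUI and 208 ± 12.6 CPM in Blank (SD, n = 3 each), and the log2 fold changes were 0.34 ± 0.19 over SUI (95% interval -0.09 to 0.77, edgeR adjusted p = 0.713) and 0.33 ± 0.19 over Blank (adjusted p = 0.898). Mdh2 had 709.7, 631 and 684 CPM in SUI plus PFES, 387, 483 and 596 CPM in SUI and 356, 581 and 519.6 CPM in Blank. It too had no overlap between the stimulated libraries and the 6 others, and the share of all genes with this pattern was not counted. Mdh2 averaged 675 ± 40.3 in SUI plus PFES, 489 ± 105 in SUI and 485 ± 117 CPM in Blank (SD, n = 3 each), with log2 fold changes of 0.47 ± 0.25 over SUI (95% interval -0.09 to 1.02, adjusted p = 0.703) and 0.47 ± 0.25 over Blank (adjusted p = 0.898). The value over Blank was 0.28 without Blank 1. The FPKM ratio of Mdh2 to Mdh1, the cytosolic malate dehydrogenase, was 2.68, 3.42 and 3.06 in SUI plus PFES, above the 2.49, 2.38 and 2.56 of SUI, and 3.37, 2.35 and 2.45 in Blank. The difference from SUI was 0.30 on the log2 scale (exact permutation p = 0.10, adjusted value 0.66).

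**Figure D3:**
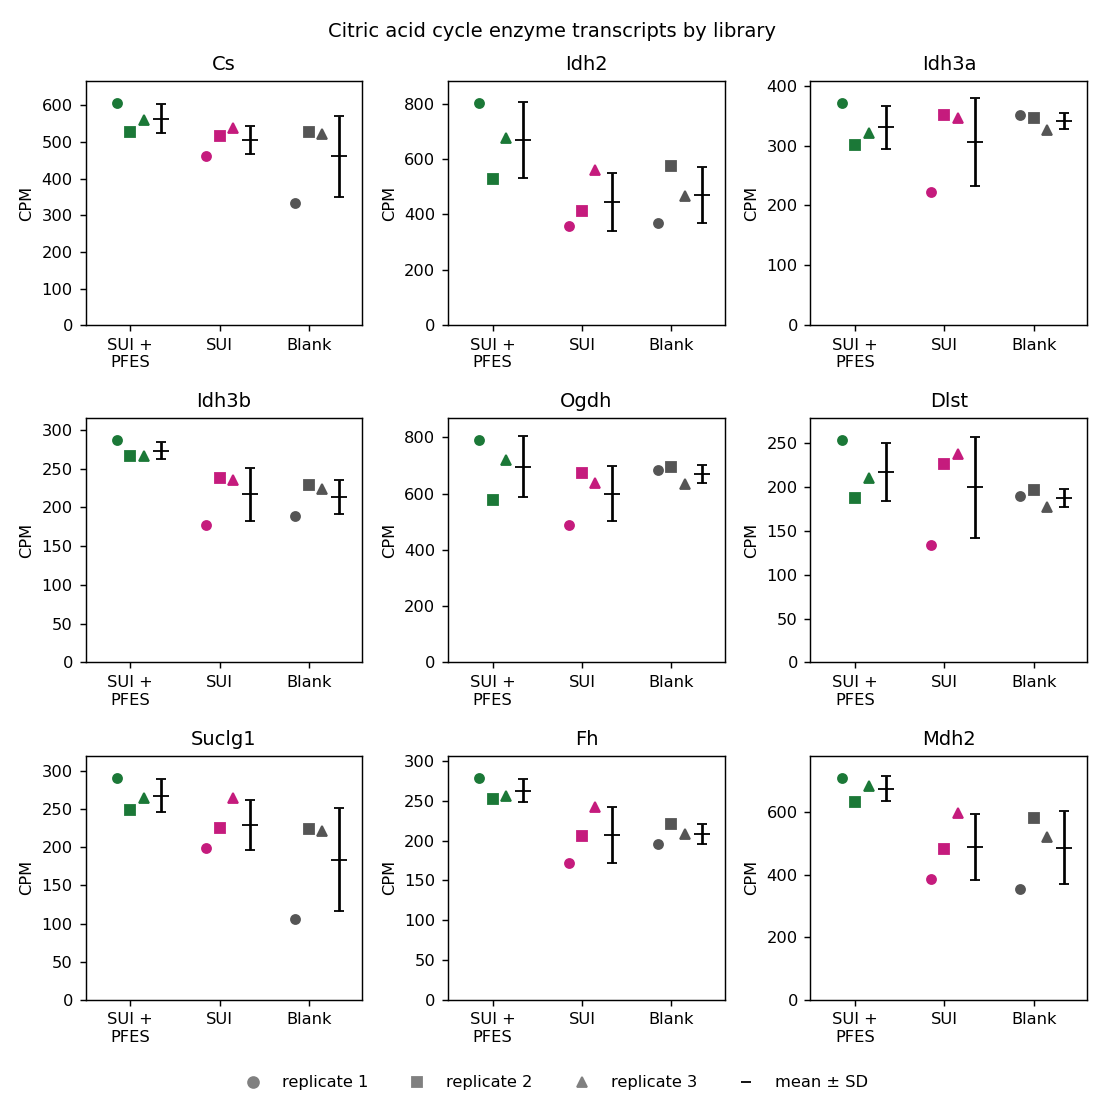
CPM of each of the 9 genes (y axes from 0), 1 point per library by replicate number, with mean and SD beside each group, for SUI plus PFES, SUI and Blank. The stimulated libraries lie above all others for Idh3b, Fh and Mdh2. Of all genes, 9.52% had them above SUI and 7.9% above Blank, and the share above both was not counted. SUI plus PFES 1 is the highest library in every panel, and SUI 1 or Blank 1 the lowest.

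Because Idh3b, Fh and Mdh2 were the 3 genes whose stimulated libraries did not overlap SUI in CPM, the sequence around their starts is shown, from 250 bases before to 50 bases after the annotated start (RefSeq, rat build GRCr8, 5′ to 3′ on the strand of the gene). Capitals mark every match, on either strand, to CCGGAAG, the ETS site bound by GABP (also named NRF2), to the CRE sequences TGACG and TGACGTCA, and to the CCAAT box. The regions are chr3:137939941-137940240 (minus strand) for Idh3b, chr13:90082401-90082700 (minus strand) for Fh and chr12:26543792-26544091 (minus strand) for Mdh2.
Idh3b: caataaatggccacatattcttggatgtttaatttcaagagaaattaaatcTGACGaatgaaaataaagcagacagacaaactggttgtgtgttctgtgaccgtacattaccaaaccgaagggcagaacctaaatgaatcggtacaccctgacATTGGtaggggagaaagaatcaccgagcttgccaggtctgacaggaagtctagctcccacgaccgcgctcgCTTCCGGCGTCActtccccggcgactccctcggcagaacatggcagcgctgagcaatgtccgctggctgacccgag
Fh: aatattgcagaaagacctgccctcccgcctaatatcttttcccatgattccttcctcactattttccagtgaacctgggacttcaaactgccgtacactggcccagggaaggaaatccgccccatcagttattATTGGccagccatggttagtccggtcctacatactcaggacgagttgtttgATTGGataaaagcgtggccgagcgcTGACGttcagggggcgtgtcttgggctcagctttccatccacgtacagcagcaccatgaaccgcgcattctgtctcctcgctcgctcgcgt
Mdh2: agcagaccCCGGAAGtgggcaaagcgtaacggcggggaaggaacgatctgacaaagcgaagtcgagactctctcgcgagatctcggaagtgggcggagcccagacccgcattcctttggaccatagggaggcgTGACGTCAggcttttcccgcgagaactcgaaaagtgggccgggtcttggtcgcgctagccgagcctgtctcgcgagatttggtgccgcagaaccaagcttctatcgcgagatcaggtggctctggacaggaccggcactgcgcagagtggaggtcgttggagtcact

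In Idh3b the ETS match began at -26 from the start and ran into a TGACG match at -19, so that they appear as one run of capitals. Another TGACG match began at -199 and a CCAAT box at -97. Fh held TGACG at -41 and CCAAT boxes at -117 and -66. Mdh2 held an ETS match at -242 and TGACGTCA, which contains TGACG on both strands, at -117. RefSeq promoters of the same length were available for 8 of the 9 genes and 27457 genes in all. CCGGAAG was present in 3 of the 8 (Idh3b, Dlst and Mdh2) and in 9.22% of all. TGACG was present in 5 of the 8 (Idh3b, Ogdh, Suclg1, Fh and Mdh2) and in 22.0% of all, TGACGTCA in Ogdh and Mdh2 and in 1.91% of all, and CCAAT in 6 of the 8 and 37.7% of all. The ERR site AAGGTCA (4.37% of all), the NRF1 site (4.71%) and the YY1 core AAGATGGC (3.44%) were in none of the 8 windows. The GC content of the 8 had a median of 60.7%, against 52.3% for all promoters. These matches describe letters in the windows and do not show binding.

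In CPM, extreme values fell in 3 libraries. SUI plus PFES 1 had the highest CPM for all 9, on average 0.35 above the 9-library mean on the log2 scale. SUI 1 was lowest for 6 (Idh2, Idh3a, Idh3b, Ogdh, Dlst and Fh), with an average deviation of -0.39, and Blank 1 for Cs, Suclg1 and Mdh2, with an average of -0.34. On the FPKM scale SUI 1 was not low: its average deviation was -0.01, and Blank 1, at -0.78, was lowest for all 9. FPKM do not carry the TMM factor, which was 1.30 in SUI 1 and 0.744 in Blank 1. The highest FPKM were spread more widely, with SUI plus PFES 2 highest for 4 genes (Idh3b, Suclg1, Fh and Mdh2), Blank 2 for Idh3a and Ogdh, SUI plus PFES 1 for Idh2, SUI 1 for Cs and SUI 3 for Dlst. By FPKM, the stimulated libraries lay above the SUI libraries for 5 of the 9 genes, Idh2, Idh3b, Suclg1, Fh and Mdh2, where 5.39% of all genes did so, and below them for 0 of the 9, where 15.9% did. The summed FPKM of the 9 genes was 1424, 1437 and 1442 in SUI plus PFES (mean 1434 ± 9.41, SD, n = 3), 1244, 1233 and 1319 in SUI (1265 ± 46.9) and 707, 1391 and 1267 in Blank (1121.5 ± 365). The stimulated sums lay close together and above all others. Abundant genes weigh most in such a sum: Mdh2 averaged 409 FPKM in SUI plus PFES and 325 in SUI. Cs averaged 164.0 and 163.6 FPKM, and Idh3a and Dlst had lower means than in SUI. The median FPKM fold change over SUI was 0.08 on the log2(FPKM + 1) scale, smaller than the CPM median of 0.22, and the median of all genes on that scale was -0.05.

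A further 8 cycle genes were listed (Idh3g, Dld, Suclg2, Sucla2 and Sdha to Sdhd). All 8 had fold changes above 0 in SUI plus PFES over SUI (median 0.24), 4 of 8 did in SUI over Blank (median -0.02) and 6 of 8 in SUI plus PFES over Blank (median 0.26). None was called in any comparison by edgeR. Sdhb, the iron-sulphur subunit of succinate dehydrogenase, had the smallest p after stimulation, with 0.42 ± 0.22 over SUI (adjusted p = 0.694). The flavoprotein subunit Sdha had 0.30 ± 0.21 and Idh3g 0.23 ± 0.22 in the same comparison, and without SUI 1 they were 0.17 and 0.13. In SUI over Blank the succinyl-CoA ligase subunits Suclg2 (0.33 ± 0.23) and Sucla2 (-0.36 ± 0.26) had the smallest p and opposite signs, but they were 0.13 and -0.05 without Blank 1. Sdhc, a membrane anchor of succinate dehydrogenase, led in SUI plus PFES over Blank with 0.49 ± 0.30, which was 0.24 without Blank 1. Dld, the E3 component shared by several dehydrogenase complexes, was the steadiest of the 17 per length, with a coefficient of variation of 2.82% in FPKM over the 9 libraries.

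**Figure D4:**
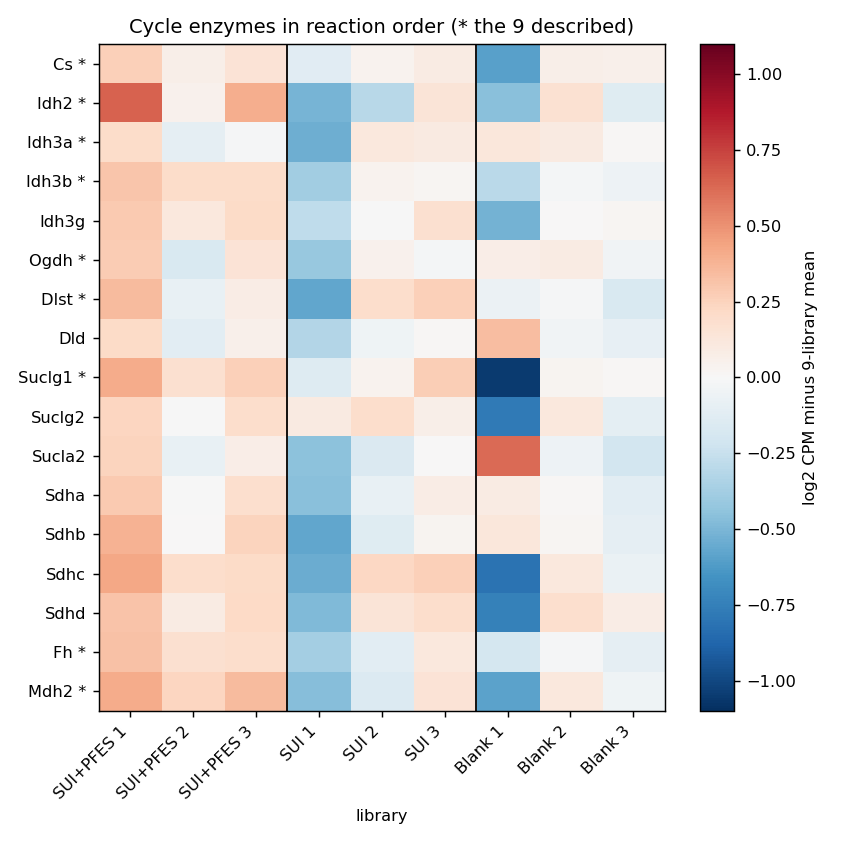
Log2 CPM of 17 citric acid cycle genes minus each gene's 9-library mean, genes in reaction order (rows) and libraries by group (columns); red is above and blue below the mean, and stars mark the 9 genes described. Most of the column SUI plus PFES 1 is red and most of SUI 1 blue, while Blank 1 mixes low genes such as Suclg1 (-1.06) with high ones such as Sucla2.

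Entry of pyruvate into the cycle is set by the pyruvate dehydrogenase complex, which kinases (Pdk genes) switch off and phosphatases (Pdp genes) switch on by phosphorylating and dephosphorylating it. Of the 11 genes of the complex and its regulators 0 were called in any comparison. Pdk4, the kinase isoform known for its response to fasting and fat use, stood at 1421.5, 338 and 784 CPM in SUI plus PFES, 2349, 1146 and 1527 CPM in SUI and 891, 690.1 and 884 CPM in Blank. Every SUI library was above every Blank library, while the stimulated libraries ranged from below the Blank libraries into the SUI range. Means were 848 ± 545 in SUI plus PFES, 1674 ± 615 in SUI and 822 ± 114 CPM in Blank (SD, n = 3 each). The log2 fold change was 1.03 ± 0.47 for SUI over Blank (unadjusted p = 0.0532, edgeR adjusted p = 0.607) and -0.98 ± 0.47 for SUI plus PFES over SUI (unadjusted p = 0.0624, adjusted p = 0.646). Without SUI 1 they were 0.69 and -0.65, and the value over SUI was -1.58 without SUI plus PFES 1 and -0.60 without SUI plus PFES 2.

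Pdp1, the phosphatase isoform that reactivates the complex in muscle, was measured at 49.5, 60.1 and 55.8 CPM in SUI plus PFES, 31.3, 21.9 and 37.1 CPM in SUI and 28.8, 48.9 and 33.4 CPM in Blank. In CPM the 3 stimulated libraries were above the 6 others, by a small margin over Blank 2. In FPKM they were not, with 7.83, 11.6 and 9.86 FPKM in SUI plus PFES and 9.33 FPKM in Blank 2. Means were 55.1 ± 5.35 in SUI plus PFES, 30.1 ± 7.66 in SUI and 37.1 ± 10.5 CPM in Blank (SD, n = 3 each). SUI plus PFES over SUI gave 0.87 ± 0.26 (unadjusted p = 0.00734, edgeR adjusted p = 0.480), with 0.69 to 1.05 as single libraries were left out, and SUI plus PFES over Blank gave 0.57 ± 0.26 (adjusted p = 0.898). The other phosphatase, Pdp2, had 0.55 ± 0.40 over SUI, which was 0.13 without SUI plus PFES 3.

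**Figure D5:**
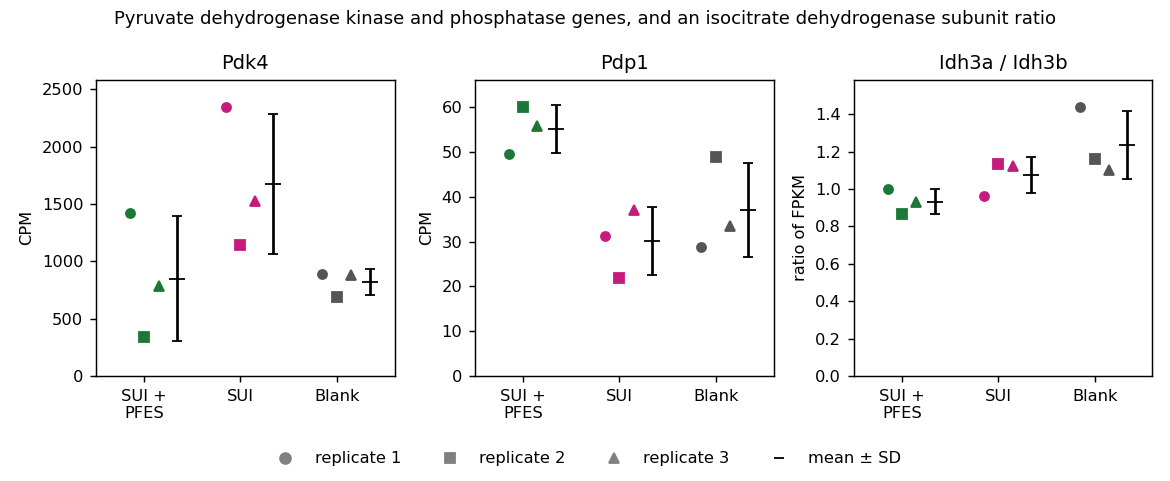
Left and centre, CPM of Pdk4 and Pdp1; right, the FPKM ratio of Idh3a to Idh3b; 1 point per library by replicate number, with mean and SD, for SUI plus PFES, SUI and Blank. Pdk4 is above every Blank library in each SUI library, Pdp1 is highest in the 3 stimulated libraries, and the ratio is 1.00 or lower in stimulated libraries and at least 1.10 in Blank.

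Around the cycle, 10 of 14 genes of pyruvate entry, anaplerosis and mitochondrial carriers were above 0 in SUI plus PFES over SUI (median 0.19), led by the citrate carrier Slc25a1 with 0.98 ± 0.48 (edgeR adjusted p = 0.656). The cytosolic counterparts had 4 of 6 above 0 (median 0.04), and Idh1, the cytosolic NADP-dependent isocitrate dehydrogenase, had -0.87 ± 0.52 (adjusted p = 0.730), which was 0.18 without SUI 1. The Idh2 to Idh1 ratio of FPKM was 58.7, 21.5 and 31.0 in SUI plus PFES, 5.19, 25.3 and 31.3 in SUI and 18.9, 20.7 and 21.7 in Blank. Acly, which splits exported citrate in the cytosol, had 0.84 ± 0.35 in SUI over Blank (unadjusted p = 0.0376, adjusted p = 0.588), which was 0.43 without SUI 3. Among 9 tested paralogues and assembly factors the median after stimulation was 0.04. None of these genes was called in any comparison.

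Of 19 subunits of oxidative phosphorylation, which uses the NADH and FADH2 of the cycle, 18 were above 0 in SUI plus PFES over SUI, with a median of 0.34, and for 10 of 19 the stimulated libraries lay above the SUI libraries in CPM, where 9.52% of all genes did so. None was called. Ndufa1, a subunit of complex I, had the smallest p. It had 56.8, 57.2 and 51.2 CPM in SUI plus PFES, 35.9, 38.9 and 41.5 CPM in SUI and 39.7, 36.4 and 45.3 CPM in Blank, and the stimulated libraries were above all others. Its log2 fold change over SUI was 0.51 ± 0.17 (unadjusted p = 0.0129, edgeR adjusted p = 0.507). Of the 10 tested regulators of mitochondrial biogenesis, 6 were above 0 and 4 below in SUI plus PFES over SUI, with a median of 0.42. That median ran from 0.08 to 0.56 as single libraries were left out. Nrf1 was among those below 0, with -0.26 ± 0.19 (edgeR adjusted p = 0.798). Ppargc1b, a coactivator of mitochondrial biogenesis, had 0.99 ± 0.61 (adjusted p = 0.736) in SUI plus PFES over SUI. In SUI over Blank Ppargc1b had -1.68 ± 0.62 (unadjusted p = 0.0222, adjusted p = 0.552). Its value over SUI was 0.59 without SUI 1 and 1.51 without SUI 2, and that of SUI over Blank was -1.01 without Blank 1. Gabpa, which encodes the subunit of GABP that binds the ETS site, had -0.64 ± 0.28 in SUI plus PFES over Blank (unadjusted p = 0.0449, adjusted p = 0.898), which was -0.24 without Blank 1.

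Fibre type genes had medians below that of the 9 cycle genes. In SUI plus PFES over SUI, 8 of 9 slow fibre genes were above 0 with a median of 0.10, and 6 of 6 tested fast fibre genes with a median of 0.18. With single libraries left out, these medians ran from -0.10 to 0.42 and from -0.07 to 0.36. Both ranges overlapped the 0.14 to 0.34 of the 9 cycle genes. Striated muscle markers had 6 of 7 above 0 in that comparison, with a median of 0.07. Single libraries left out gave -0.08 to 0.19. Myf6, the exception, had -2.37 ± 0.38 (edgeR adjusted p = 0.181). Among markers of other cells in the same comparison, all 8 of fibro-adipogenic progenitors were above 0 with a median of 1.52, 4 of 4 tested leukocyte markers with 1.14, 4 of 5 endothelial markers with 0.78, 4 of 5 Schwann cell markers with 0.34, 5 of 5 smooth muscle markers with 0.17 and 3 of 6 adipocyte markers with 0.02. With single libraries left out, these medians ran from 0.97 to 1.82 for progenitors, 0.45 to 1.55 for leukocytes and 0.58 to 0.88 for endothelium. For Schwann cells the range was 0.01 to 0.78, for smooth muscle 0.03 to 0.61 and for adipocytes -1.43 to 0.89. Cd3e, among the leukocyte markers, did not exceed 0.288 CPM in any library and had 1.47 ± 1.87. None of these markers was called. In SUI over Blank 0 of 8 progenitor markers (median -0.93) and 0 of 4 leukocyte markers (median -1.3) were above 0. So were 0 of 5 smooth muscle (-0.44), 1 of 5 Schwann cell (-0.75), 2 of 5 endothelial (-0.10) and 5 of 6 adipocyte markers (0.81). With single libraries left out, the endothelial median ran from -0.32 to 0.17 and the adipocyte median from -0.11 to 1.48. Of fibre type genes, 3 of 9 slow (-0.04) and 0 of 6 fast (-0.24) were above 0 in that comparison. So were 4 of 7 striated muscle markers (0.08). The summed level of the progenitor markers was 228 to 862 FPKM in SUI plus PFES and 196 to 380.0 FPKM in SUI. Leukocyte markers summed to 22.0 to 122 FPKM in SUI plus PFES and 26.3 to 32.8 FPKM in SUI. Of the progenitor and leukocyte markers with a row, none was at 0 in all libraries. The lowest of both sums in the stimulated group belonged to SUI plus PFES 1, the library with the highest CPM of all 9 cycle genes, and the highest to SUI plus PFES 2. On the FPKM scale of these sums, the 9 cycle genes summed to 1424 in SUI plus PFES 1 and 1437 in SUI plus PFES 2. The part of these cells in the values of the cycle genes was not tested.

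Outside the lists, the genes most like the 9 across the 9 libraries were found by Pearson correlation of log2 CPM with the mean standardised log2 CPM of the 9, among 6264 genes with a mean of at least 10 CPM. The first 10 were Ubl5 (r = 0.979), Trim72 (0.973), Ndufa8 (0.971), Npepl1 (0.969), Ubac1 (0.966), Pecr (0.963), Ndufv2 (0.958), Gmpr (0.955), Ppp1r16b (0.952) and Sars2 (0.95). Ndufa8 and Ndufv2 encode complex I subunits, Trim72 a muscle protein of membrane repair and Sars2 the mitochondrial seryl-tRNA synthetase. All points share the libraries and their scaling. Without Blank 1, 2 of these 10 genes, Trim72 and Ubac1, were again among the first 10.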

How the data were processed

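RNA from rat pubococcygeus muscle was sequenced in 9 libraries, grouped by sample title. Per the submitters' processing notes, the build was mRatBN7.2 and the tools named are RSEM 1.3.1, Bowtie2 and DESeq2 1.4.5; how strand was used in counting is not given in those notes or labels. Expected counts, as deposited, hold whole numbers only. FPKM, per the file headers, was scaled by the authors for length and library size. The tables hold 30518 rows, 4341 of them without a symbol. All libraries carry one batch label.

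Counts were filtered with filterByExpr (16256 genes), scaled by TMM and tested with edgeR 4.0.16 (R 4.3.3; quasi-likelihood, robust, all 9 libraries in one fit), adjusted by Benjamini-Hochberg over all genes at 0.05. SE is the size of the log2 fold change over the square root of F. Subunit ratios were tested by exact permutation. edgeR, DESeq2 and voom were tried on simulated counts with the same dispersion for every gene and no library that stood apart, unlike these data. The genes and lists were chosen with earlier results of these data known; of 149 list genes, 142 had a row, and the rest are not analysed here. A further listed gene is not reported here. Named beyond the 9 genes are, per list and comparison, at most the 3 with the smallest p, and the 10 most like genes. Alternatives were DESeq2 1.42.0 (test and size factors), library totals, voom and FPKM with limma 3.58.1 (pseudocounts 1 and 0.1), 2 other filters, a gene length correction, the mitochondrial genome left out, 6-library fits, a replicate block and libraries left out.

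By the deposited coordinates (mRatBN7.2), Cs lies at chr7:758345-791421, Idh2 at chr1:134029772-134058025, Idh3a at chr8:54971740-54991084, Idh3b at chr3:117481845-117486982, Ogdh at chr14:81150091-81217479, Dlst at chr6:104758631-104783296, Suclg1 at chr4:105308039-105337600, Fh at chr13:87524337-87550266 and Mdh2 at chr12:20894262-20907271. Rows on the opposite strand overlap Idh2, Dlst (Rps6kl1, 0.999% of its mean count) and Ogdh (LOC120096860).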

Additional observations from a re-analysis of the deposited data

How the results depend on the processing

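With 3 libraries a group, none of the 9 genes was called in any comparison under any alternative run. Genes called in the whole table depended on the tool: DESeq2 called 176 in SUI over Blank, 208 in SUI plus PFES over SUI and 21 in SUI plus PFES over Blank, where edgeR called 0, 2 and 1. With the stimulated group over SUI, voom called 48, library totals 1, the replicate block 1, and the 6 libraries alone, both FPKM fits and the fit without Blank 1 and SUI 1 each called 0. With it over Blank, the 6 libraries alone, the block, log2(FPKM + 1) and the fit without both libraries called 0. With single libraries left out, the counts were 0 to 1 (SUI over Blank), 0 to 3 (SUI plus PFES over SUI) and 0 to 1 (SUI plus PFES over Blank). Same-numbered libraries deviated together with r from -0.218 to 0.113, and differently numbered ones with r from -0.177 to 0.211, so no pairing by number was seen. Deviations from means of 3 libraries cannot settle whether the numbers mark shared handling. Under the replicate block the medians of the 9 genes were 0.01, 0.25 and 0.34 in the same order.

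The median of the 9 genes in SUI over Blank was 0.23 in both FPKM fits, against 0.01, and with single libraries left out it ran from -0.14 to 0.13. Likewise it ran from 0.14 to 0.34 in SUI plus PFES over SUI and from 0.25 to 0.40 in SUI plus PFES over Blank. Library totals without a composition factor moved the median of all genes to 0.19 in SUI over Blank, -0.11 in SUI plus PFES over SUI and 0.09 in SUI plus PFES over Blank, and that of the 9 genes to 0.15, 0.10 and 0.37.

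Some log2 fold changes changed sign. In SUI over Blank, library totals gave 0.04 for Idh2, 0.00 for Idh3a, 0.01 for Ogdh and 0.15 for Fh; FPKM gave 0.15 for Idh2, 0.04 for Idh3a, 0.05 for Ogdh, 0.20 for Fh, 0.03 for Pdk2 and 0.12 for Cycs; voom gave 0.02 for Fh and -0.05 for Mdh2. The filter at 1 CPM gave 0.00 for Idh3b and -0.01 for Mdh2, the length correction -0.01 and -0.04, and DESeq2 and its size factors 0.00 for Mdh2. Without Blank 1 and SUI 1, Idh3a was 0.05, Fh 0.06, Mdh2 -0.03, Sucla2 0.05 and Pdk2 0.01, while Dlst kept its sign, at 0.31 against 0.09. In SUI plus PFES over SUI, Idh3a was -0.02 by voom, -0.01 by FPKM and -0.07 without both libraries, Dlst -0.04 by voom and -0.10 without both, and Idh1 0.17 without both. In SUI plus PFES over Blank, Idh3a was 0.01 by library totals and 0.02 by FPKM. The Suclg1 to Suclg2 ratio in SUI over Blank was 0.02 by CPM, against -0.01. The cause was not tested.

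With single libraries left out, log2 fold changes that changed sign ranged as follows in SUI over Blank: Cs -0.04 to 0.24, Idh2 -0.29 to 0.09, Idh3a -0.28 to 0.02, Idh3b -0.06 to 0.13, Dlst -0.06 to 0.29, Fh -0.14 to 0.09, Mdh2 -0.16 to 0.16. Sucla2, from -0.51 to -0.05, and Pdk2, from -0.30 to -0.05, kept their sign. For SUI plus PFES over SUI the ranges were Idh3a -0.07 to 0.22, Dlst -0.09 to 0.27, Idh1 -1.21 to 0.18, and in SUI plus PFES over Blank Idh3a -0.13 to 0.02, Ogdh -0.05 to 0.17, Pdp2 -0.09 to 0.59. Log2 ratios that changed sign ranged, in SUI over Blank, Suclg1 to Suclg2 -0.15 to 0.08, Idh2 to Idh1 -0.83 to 0.46, Mdh2 to Mdh1 -0.21 to 0.04. For SUI plus PFES over SUI they were Ogdh to Dlst -0.04 to 0.18, Ogdh to Ogdhl -1.42 to 0.53, and in SUI plus PFES over Blank Idh3b to Idh3g -0.05 to 0.07, Sucla2 to Suclg2 -0.71 to 0.07.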
